A study of Mus musculus with 2 samples.

Results

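The 10 genes described here encode core proteins of the BCL2 family, which decides whether a mitochondrion releases the factors that start apoptosis. They were chosen by name as Bcl2, Bcl2l1, Mcl1, Bcl2l2, Bax, Bak1, Bcl2l11, Bbc3, Pmaip1 and Bad, each of which was found once among the 46095 genes of the deposited count table. All 10 had at least 20 counts over both libraries, as did 13363 genes of the table, the genes assessed below. The series measured RNA by sequencing in leukaemia-initiating cells of a mouse acute myeloid leukaemia (AML), taken from the bone marrow by a sort for Mac1 (the product of Itgam) and c-Kit (the product of Kit) on the surface. One library was labelled P2x7-KO, a knockout of the ATP-gated cation channel encoded by P2rx7, and the other was labelled wild type, with 1 library per group. Both came from C57BL/6 mice aged 8 weeks. The sample titles end in KD for P2x7-KO and in Scr for wild type, and the sources used here do not give the leukaemia driver, how the P2x7 allele was changed, or the number of mice behind each library.

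CPM here are counts scaled to 1000000 per library. P2rx7 itself had 543 counts (42.6 CPM) in the library labelled P2x7-KO and 229 counts (18.8 CPM) in the library labelled wild type, a ratio of 2.27 (95% counting interval 1.94 to 2.66). Adjusted for transcript length and GC content, as described below, its log2 ratio was 0.85 (0.63 to 1.08). P2rx7 RNA was thus higher under the knockout label. How the allele was changed is not given, so these counts do not show whether the label is right. Below, P2x7-KO and wild type therefore name the libraries by their labels alone, and directions are those between the libraries. The libraries held 12435916 counts over 18983 detected genes (P2x7-KO) and 12456212 counts over 18440 detected genes (wild type), so that 3 counts, taken as the limit for a gene at 0, equal 0.236 CPM in P2x7-KO and 0.247 CPM in wild type. A test between genotypes is not possible with a single library in each group. Reads need not be independent molecules, the intervals cover the error of counting alone, and differences between animals, sorts and preparations lie outside them. In sorted bulk cells, fewer cells of a type and less RNA per cell cannot be told apart.

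In healthy cells the pro-survival proteins BCL2, BCL-XL (from Bcl2l1), MCL1 and BCL-W (from Bcl2l2) bind and hold back the effectors BAX and BAK, which otherwise form pores in the mitochondrial outer membrane. Stress raises or activates the BH3-only proteins, here BIM (from Bcl2l11), PUMA (from Bbc3), NOXA (from Pmaip1) and BAD, which occupy the pro-survival proteins and, for BIM and PUMA, can also engage the effectors. AML cells are known to lean on MCL1 and BCL2, and drugs that imitate BH3-only proteins act on this pathway, in which much regulation happens in the protein and is not seen in RNA counts.

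Of the 10 genes, 0 were at least 2-fold apart between the libraries with an interval that excluded a ratio of 1, while 19.8% of all genes with at least 20 counts were (10.8% higher and 8.95% lower in the library labelled P2x7-KO). At 1.5-fold, 5 of the 10 were apart, against 40.0% of all genes. In the library labelled P2x7-KO Bcl2, Bax, Bbc3 and Pmaip1 were lower, where 18.9% of all genes were, and Bcl2l2 was higher, where 21.1% of all genes were. The interval excluded 1 at any fold for 9 of the 10 genes, 4 higher and 5 lower, where 70.2% of all genes did so (35.6% higher and 34.7% lower). The median log2 ratio was -0.11 for the 10 genes and 0.0050 for all genes assessed, and the median absolute log2 ratio was 0.50 for both. By log2 ratio the 10 genes ran from percentile 15.3 (Bbc3) to percentile 79.2 (Bcl2l2) of all genes assessed.

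**Figure D1:**
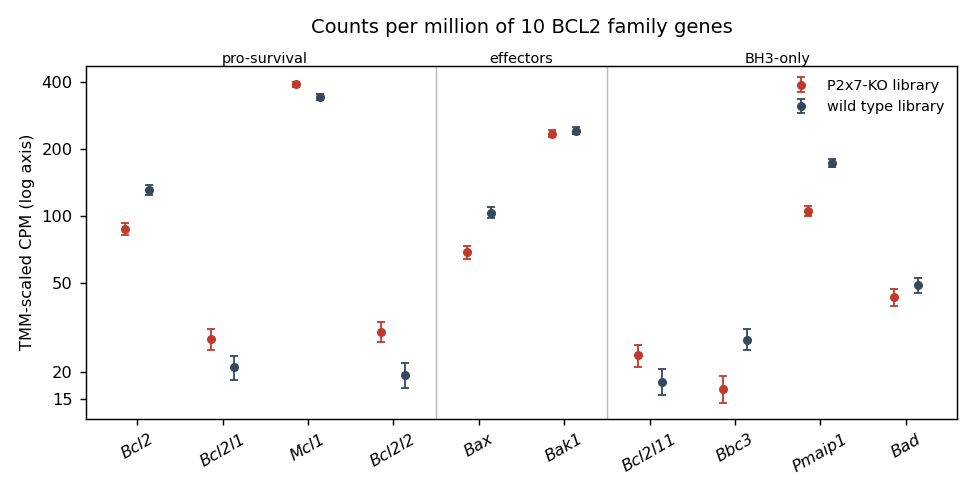
TMM-scaled CPM of the 10 genes on a log axis, with the library labelled P2x7-KO in red to the left of the library labelled wild type in dark blue. Points are single libraries and bars are exact 95% Poisson intervals. Mcl1 had the highest CPM in both libraries (391 CPM in P2x7-KO and 345 CPM in wild type). Without overlap of the bars, Bcl2, Bax, Bbc3 and Pmaip1 lay lower in the library labelled P2x7-KO, and Bcl2l1, Mcl1, Bcl2l2 and Bcl2l11 lay higher there.

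Among the pro-survival genes, Bcl2 was the one that was lower in the library labelled P2x7-KO, while Bcl2l1, Mcl1 and Bcl2l2 were higher there. Bcl2 (chromosome 1, 106538178 to 106714274, minus strand, mm10 in GENCODE M21) encodes the founding member of the family, which was found at a chromosome breakpoint in human lymphoma. It had 1115 counts (87.6 CPM) in the library labelled P2x7-KO and 1598 counts (131 CPM) in the library labelled wild type, a ratio of 0.667 (0.617 to 0.720). Mcl1 (chromosome 3, 95658788 to 95663176, plus strand) encodes a short-lived protein that neutrophils and blood stem cells need to survive. Its 4984 counts (391 CPM) in P2x7-KO and 4193 counts (345 CPM) in wild type gave a ratio of 1.14 (1.09 to 1.18), and Mcl1 lay at percentile 96.9 of all genes by counts.

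Bcl2l1 (chromosome 2, 152780668 to 152831728, minus strand) yields the pro-survival BCL-XL and, by splicing, the pro-death BCL-XS, which counts per gene do not separate. It had 356 counts (28.0 CPM) in the library labelled P2x7-KO and 254 counts (20.9 CPM) in the library labelled wild type, a ratio of 1.34 (1.14 to 1.58). Bcl2l2 (chromosome 14, 54883377 to 54888234, plus strand) encodes BCL-W and was the highest of the 10 genes by ratio. Its 384 counts (30.2 CPM) in P2x7-KO and 235 counts (19.3 CPM) in wild type gave a ratio of 1.56 (1.32 to 1.84). A same-strand gene, Gm20521, shares 13.3% of the exon bases of Bcl2l2, and the sources used here do not say how reads of overlapping genes were assigned.

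The counts of the pro-survival genes therefore had a different make-up in the libraries although their sum was nearly equal. The summed level was 537 in the library labelled P2x7-KO and 516 in the library labelled wild type, both in CPM, a ratio of 1.04 (1.01 to 1.08). Mcl1 made up 72.9% of these counts (exact 95% interval 71.8 to 73.9) in the library labelled P2x7-KO and 66.8% (65.6 to 67.9) in the library labelled wild type. Bcl2 made up 16.3% (15.4 to 17.2) in P2x7-KO and 25.4% (24.4 to 26.5) in wild type. Bcl2l1 and Bcl2l2 made up 5.21% and 5.61% in the library labelled P2x7-KO, against 4.04% and 3.74% in the library labelled wild type. Shares of counts favour long transcripts.

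Of the effector genes, Bax was lower in the library labelled P2x7-KO and Bak1 was near equal. Bax (chromosome 7, 45461697 to 45466898, minus strand) encodes an effector that waits mostly in the cytosol. It had 875 counts (68.7 CPM) in the library labelled P2x7-KO and 1260 counts (104 CPM) in the library labelled wild type, a ratio of 0.663 (0.608 to 0.724). Bak1 (chromosome 17, 27019810 to 27029009, minus strand) encodes the effector that sits on the mitochondrial outer membrane, where MCL1 and BCL-XL hold it back. With 2987 counts (235 CPM) in P2x7-KO and 2950 counts (243 CPM) in wild type, its ratio of 0.967 (0.919 to 1.02) was the one whose interval included 1. The summed effectors stood at 303 CPM in P2x7-KO and 346 CPM in wild type, a ratio of 0.876 (0.839 to 0.916), and Bak1 made up 77.3% of their counts in P2x7-KO and 70.1% in wild type. Bak1 shares 25.5% of its exon bases with Ggnbp1 on the opposite strand, which had 171 counts in P2x7-KO and 219 counts in wild type. Bax shares 12.2% with the same-strand gene Gm45808. The sources used here do not say whether counting used strand.

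Within the BH3-only genes the directions were mixed: in the library labelled P2x7-KO Pmaip1 and Bbc3 were lower, Bad was slightly lower and Bcl2l11 was higher. Pmaip1 (chromosome 18, 66458533 to 66465565, plus strand) encodes NOXA, which binds mainly MCL1 and sends it to degradation, and whose gene is a target of p53 and of the integrated stress response. It had 1345 counts (106 CPM) in the library labelled P2x7-KO and 2111 counts (174 CPM) in the library labelled wild type, a ratio of 0.609 (0.568 to 0.652). Bbc3 (chromosome 7, 16308393 to 16318205, plus strand) encodes PUMA, another p53 target, which binds all pro-survival proteins. It had the lowest ratio of the 10 genes, 0.597 (0.501 to 0.711), from 212 counts (16.6 CPM) in P2x7-KO and 339 counts (27.9 CPM) in wild type.

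Bcl2l11 (chromosome 2, 128126038 to 128162547, plus strand) encodes BIM, a BH3-only protein whose gene is turned on by FOXO factors when growth factors are withdrawn. It had 301 counts (23.6 CPM) in the library labelled P2x7-KO and 219 counts (18.003 CPM) in the library labelled wild type, a ratio of 1.31 (1.10 to 1.57). Bad (chromosome 19, 6941861 to 6951899, plus strand) encodes a protein that survival kinases switch off by phosphorylation. Its 549 counts (43.1 CPM) in P2x7-KO and 594 counts (48.8 CPM) in wild type gave a ratio of 0.883 (0.785 to 0.993), with an upper bound close to 1. Bad shares 20.5% of its exon bases with Gpr137 on the opposite strand, which had 415 counts in P2x7-KO and 660 counts in wild type. Summed, the BH3-only genes stood at 189 CPM in the library labelled P2x7-KO and 268 CPM in the library labelled wild type, a ratio of 0.705 (0.668 to 0.743), and Pmaip1 made up 55.9% of their counts in P2x7-KO and 64.7% in wild type. Bcl2l11 made up 12.5% (11.2 to 13.9) of them in the library labelled P2x7-KO and 6.71% (5.88 to 7.62) in the library labelled wild type.

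Start-site sequences are shown for Bcl2, Bax and Bbc3, which were past 1.5-fold and lower under the P2x7-KO label. That of Bcl2l11, the BH3-only gene that was higher there, is also shown, although its ratio of 1.31 was under 1.5-fold. The window of Bcl2l2, which was past 1.5-fold and higher, is not shown, and its motifs are given below. Each is the 250 bases upstream of the start in the RefSeq table of GRCm38 (mm10), 5′ to 3′ on the strand of the gene, at chr1:106714291-106714540 (minus) for Bcl2, chr7:45466899-45467148 (minus) for Bax, chr7:16309333-16309582 (plus) for Bbc3 and chr2:128125788-128126037 (plus) for Bcl2l11. The table held such a window for 9 of the 10 genes. It held none for Pmaip1, which was also past 1.5-fold and lower under the P2x7-KO label. Capitals mark matches, on either strand, to GGGCGG (GC box, bound by SP factors), CACGTG (E-box, bound by MYC and relatives), TGACGTCA (the cyclic AMP response element, CRE), TGTTTAC (FOXO motif), the p53 decamer and the CCAAT box, whose name is its sequence.
Bcl2: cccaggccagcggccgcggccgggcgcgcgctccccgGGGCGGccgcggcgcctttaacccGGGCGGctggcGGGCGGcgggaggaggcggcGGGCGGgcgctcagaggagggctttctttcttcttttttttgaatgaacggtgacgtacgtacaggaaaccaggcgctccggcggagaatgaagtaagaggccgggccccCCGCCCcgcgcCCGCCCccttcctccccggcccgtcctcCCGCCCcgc
Bax: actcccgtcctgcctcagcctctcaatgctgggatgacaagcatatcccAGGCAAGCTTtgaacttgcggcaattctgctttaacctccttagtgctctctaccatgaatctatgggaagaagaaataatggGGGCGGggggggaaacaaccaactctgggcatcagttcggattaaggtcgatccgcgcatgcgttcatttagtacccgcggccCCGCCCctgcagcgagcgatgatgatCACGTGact
Bbc3: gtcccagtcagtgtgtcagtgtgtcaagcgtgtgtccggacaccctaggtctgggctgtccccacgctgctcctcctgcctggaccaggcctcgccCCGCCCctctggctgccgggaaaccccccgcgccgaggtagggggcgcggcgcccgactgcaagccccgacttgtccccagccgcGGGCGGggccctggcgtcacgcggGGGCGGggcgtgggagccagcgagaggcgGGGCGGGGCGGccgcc
Bcl2l11: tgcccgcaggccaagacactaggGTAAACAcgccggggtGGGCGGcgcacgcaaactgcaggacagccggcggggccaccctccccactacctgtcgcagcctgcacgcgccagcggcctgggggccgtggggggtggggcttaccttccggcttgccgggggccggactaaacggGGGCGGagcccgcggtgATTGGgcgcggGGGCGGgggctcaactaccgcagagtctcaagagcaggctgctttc

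The windows shown differed in what they held. Bcl2 had 7 GC boxes and a GC content of 74.8%, and Bbc3 had 5 GC boxes, the last pair overlapping, with 76.4% GC. Bcl2l11 had 3 GC boxes, 1 FOXO motif and 1 CCAAT box with 72.0% GC. Bax, at 54.0% GC, had 2 GC boxes, 1 E-box and 1 p53 decamer. Among the windows not shown, Bcl2l2 and Mcl1 had 1 GC box each, Bad had 3, and Bcl2l1 and Bak1 had 0. Each of these had 0 E-boxes, 0 FOXO motifs, 0 CCAAT boxes and 0 p53 decamers. Over 27025 promoters of the same length the median GC content was 52.0%. At least 1 GC box was present in 33.0% of them, and in 58.5% of the 9291 windows of genes with at least 20 counts, so GC boxes were common among expressed genes. For all promoters the shares were 6.04% for the E-box, 3.06% for the FOXO motif, 34.5% for the CCAAT box, 7.16% for the p53 decamer and 1.6% for the CRE, of which these windows held none. Among the windows of genes with at least 20 counts, the E-box was in 8.61%, the FOXO motif in 2.03% and the CCAAT box in 36.9%. The p53 decamer was in 5.91% of those and the CRE in 2.78%. A match describes letters in these windows and nothing about binding, and Bbc3 and Bcl2l11 have further annotated starts that are not shown. The Bbc3 window is upstream of a RefSeq start but lies inside the GENCODE M21 bounds of the gene, 16308393 to 16318205.

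Between these libraries a gene's ratio went with its transcript length and base composition, which bears on several of the 10 genes. Genes at least 2-fold higher in the library labelled P2x7-KO had a median transcript length of 4380 bases and a GC content of 47.0%, and genes at least 2-fold lower had 1327 bases and 53.2%, where all genes assessed had 2851 bases and 50.2%. Bcl2, at 7191 bases, lay at percentile 93.2 by length, and Bax, at 1100 bases, at percentile 13.6. By GC content Bax (63.5%) and Bbc3 (65.2%) lay at percentiles 99.1 and 99.6, and Pmaip1 (42.1%) at 10.6. The log2 ratios were therefore also given after removing a smooth trend on length, or on length and GC content, fitted over all genes assessed that had a length.

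With length and GC content adjusted for, Bcl2 was further down and 4 of the 10 genes had the opposite sign to that as scaled. The log2 ratio of Bcl2 was -0.59 as scaled, -1.14 after adjustment for length and -1.21 (-1.32 to -1.09) after adjustment for both, at percentile 3.98 of all adjusted genes. It was the only one of the 10 past 2-fold after either adjustment, where 14.1% of all genes were past 2-fold after adjustment for length (5.99% lower) and 13.3% after adjustment for both (5.56% lower). Pmaip1 stayed lower, at -0.72 as scaled and -0.95 (-1.05 to -0.85) after adjustment for both. Bcl2l1 and Bcl2l2 stayed higher, at 0.68 (0.44 to 0.92) and 0.59 (0.35 to 0.83).

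Other genes lost their difference or changed its direction, and with them the groups. The effectors had a median log2 ratio of -0.32 as scaled and 0.24 after adjustment for both, and the BH3-only genes had -0.45 as scaled and -0.047 adjusted. Bbc3, at -0.74 as scaled, was at -0.083 (-0.34 to 0.17) after adjustment for both. Bax, at -0.59 as scaled, was at -0.19 after adjustment for length and at 0.19 (0.069 to 0.32) after adjustment for both. Bcl2l11, at 0.39 as scaled, was at -0.011 (-0.27 to 0.25). Bad was at -0.18 as scaled and 0.31 after adjustment for both, Bak1 at -0.048 as scaled and 0.28 adjusted, and Mcl1 at 0.18 as scaled and 0.018 adjusted. The intervals carry the counting error alone and not that of the trend. The source of the trend on length and GC content was not tested.

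**Figure D2:**
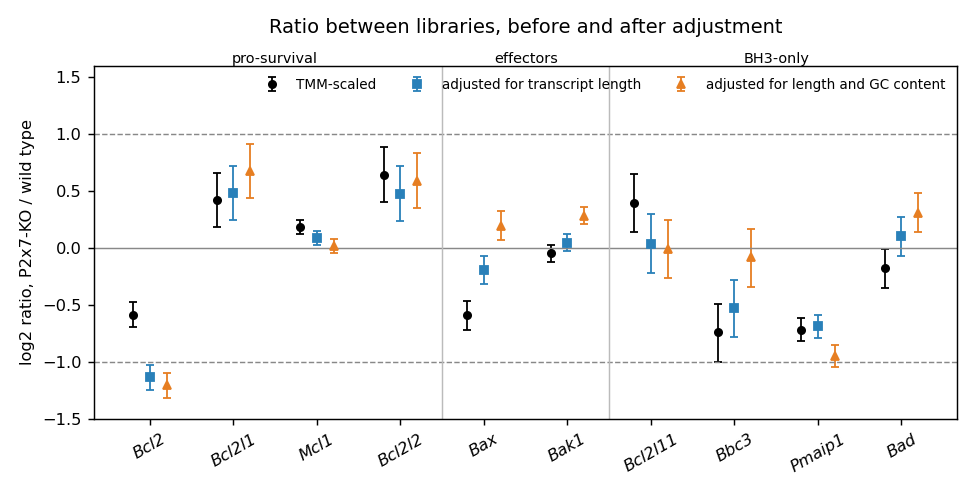
Log2 ratio of the library labelled P2x7-KO to the library labelled wild type for the 10 genes, as scaled (black circles), adjusted for transcript length (blue squares) and for length with GC content (orange triangles), with 95% counting intervals and dashed lines at 2-fold. Bcl2 moves past the lower line after adjustment, while Bax, Bak1, Bad and Bcl2l11 end on the other side of 0.

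**Figure D3:**
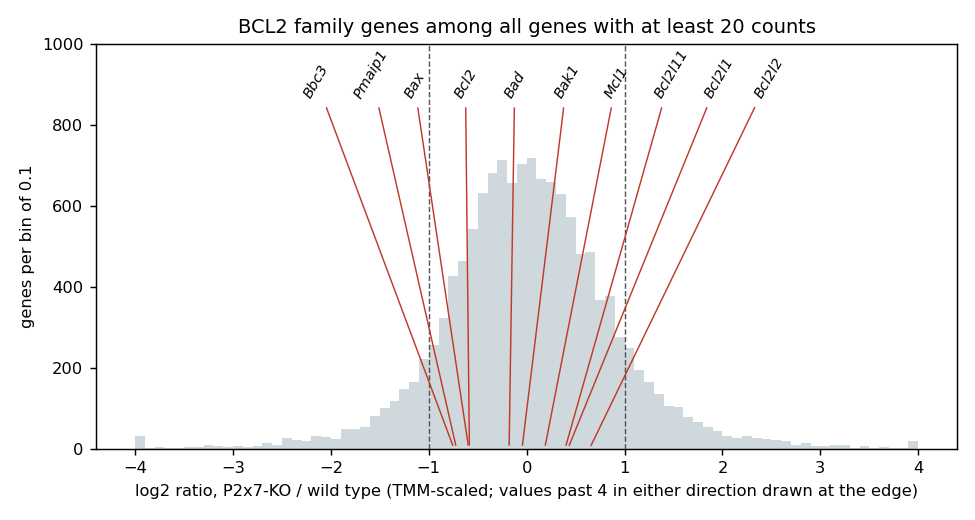
Histogram of the log2 ratio over the 13363 genes with at least 20 counts, with lines to the values of the 10 genes and dashed lines at 2-fold. All 10 genes lie between -0.74 and 0.64, inside the dashed lines.

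Ratios between the genes within a library need no scaling between libraries. They are ratios of counts and not per length, so a value above 1 does not show which gene had more transcripts. All 45 pairs were formed. The ratio of ratios was at least 2-fold with an interval excluding 1 for 10 pairs and at least 1.5-fold for 21, and its interval included 1 for 12. Among all pairs of assessed genes, 38.1% had a ratio of ratios of 2 or more by size alone, so such differences were common between these libraries. All 10 of the 2-fold pairs set Bcl2l1, Bcl2l2 or Bcl2l11 against Bcl2, Bax, Bbc3 or Pmaip1. The widest was that of Bcl2l2 to Bbc3, with 1.81 counts of Bcl2l2 per count of Bbc3 in the library labelled P2x7-KO and 0.693 in the library labelled wild type, 2.61 times as many (2.05 to 3.33). Adjusted for length and GC content, that pair was at 1.6 (1.25 to 2.04), and 4 of the 10 pairs were still past 2-fold, those of Bcl2l1 and Bcl2l2 with Bcl2 and with Pmaip1.

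For the protein pairs best known to bind each other the values differed. Mcl1 had 3.71 counts per count of Pmaip1, its NOXA partner, in the library labelled P2x7-KO and 1.99 in the library labelled wild type, a ratio of ratios of 1.87 (1.72 to 2.02), or 1.95 once adjusted for length and GC. Bcl2 per Bax was 1.27 in counts in both libraries, with a ratio of ratios of 1.005 (0.894 to 1.13). Adjusted for length and GC content, the ratio of ratios was 0.379 (0.337 to 0.426). As given below, Bcl2 lay under Bax in both libraries per length of the longest protein-coding transcript. Per coding length their intervals overlapped. Bcl2l1 per Bcl2l11, that is BCL-XL to BIM, was 1.18 in P2x7-KO and 1.16 in wild type, a ratio of ratios of 1.02 (0.799 to 1.30), and 1.61 after adjustment. Mcl1 per Bak1 was 1.67 in P2x7-KO and 1.42 in wild type, a ratio of ratios of 1.17 (1.10 to 1.25), and 0.833 after adjustment.

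Within the same role, Mcl1 per Bcl2 was 4.47 in the library labelled P2x7-KO and 2.62 in the library labelled wild type, a ratio of ratios of 1.70 (1.56 to 1.86) that adjustment widened to 2.34. Bcl2l1 per Bcl2 was 0.319 in P2x7-KO and 0.159 in wild type, a ratio of ratios of 2.01 (1.67 to 2.41), widened to 3.69. Pmaip1 per Bbc3 was 6.34 in P2x7-KO and 6.23 in wild type, a ratio of ratios of 1.02 (0.844 to 1.23), and 0.549 (0.455 to 0.664) after adjustment. Over all 45 pairs, 13 were past 2-fold after adjustment, 4 of them among the 10 above, and 13 changed sign. Among all pairs of assessed genes with a length, 28.4% were then past 2-fold by size alone. Relative to Mcl1, Bcl2l1 and Bcl2l2, Bcl2 was lower in the library labelled P2x7-KO both before and after adjustment.

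**Figure D4:**
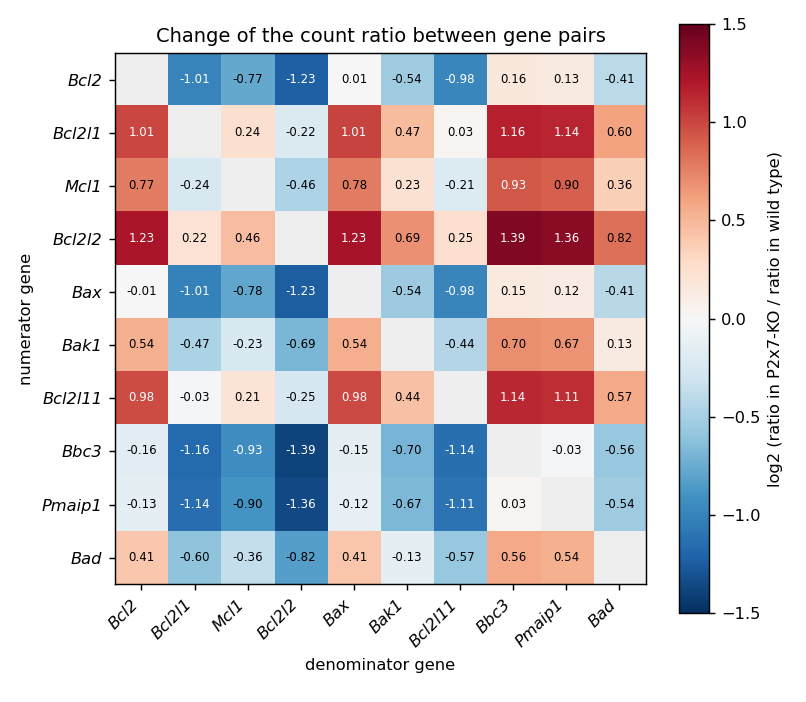
Log2 of the ratio of ratios for each pair of the 10 genes, numerator gene down the side and denominator gene along the bottom, as the count ratio in the library labelled P2x7-KO over that in the library labelled wild type, before adjustment. The rows of Bcl2l1, Bcl2l2 and Bcl2l11 are red against Bcl2, Bax, Bbc3 and Pmaip1, and the cells of Bcl2 with Bax and of Pmaip1 with Bbc3 are near 0.

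Levels of different genes were compared per length, in TPM (counts per base of the longest protein-coding transcript, scaled to 1000000 per library). TPM values are relative to the other transcripts of a library, so they give an order within a library and not a difference between libraries. In the library labelled P2x7-KO the order was Mcl1 at 289 TPM, Bak1 at 248, Bax at 157, Pmaip1 at 97.6, Bad at 70.9, Bcl2 at 30.7, Bcl2l1 at 27.4, Bbc3 at 23.1, Bcl2l2 at 19.9 and Bcl2l11 at 11.8 TPM. Bcl2 and Bcl2l1, Bcl2l1 and Bbc3, and Bbc3 and Bcl2l2 overlapped in their counting intervals. In the library labelled wild type Bak1 at 199, Mcl1 at 197 and Bax at 184 TPM stood together, Bak1 overlapping Mcl1 and Mcl1 overlapping Bax. Below them came Pmaip1 at 125, Bad at 62.3, Bcl2 at 35.7, Bbc3 at 30.1, Bcl2l1 at 15.9, Bcl2l2 at 9.91 and Bcl2l11 at 6.99 TPM, with no overlap between neighbours.

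Mcl1 and the effectors were thus the most abundant of these transcripts in both libraries, and Bcl2l11 the least. This order depended on which length was used. Per coding length Pmaip1 was at 431 TPM in the library labelled P2x7-KO, below Mcl1 (496) and Bak1 (471), and led in the library labelled wild type at 586 TPM, before Bak1 (404) and Mcl1 (362). Bcl2, most of whose transcript is not coding, was then at 156 TPM in P2x7-KO, next to Bax at 150.3, and at 194 TPM in wild type, next to Bax at 188. The lowest was then Bbc3 in P2x7-KO (36.2 TPM), and in wild type Bcl2l2 (34.8 TPM), Bcl2l11 (31.9 TPM) and Bcl2l1 (31.2 TPM) overlapped at the low end. Mcl1 and Bak1, Bcl2 and Bax, and Bcl2l11 and Bcl2l1 overlapped in P2x7-KO, and Bcl2 and Bax in wild type.

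**Figure D5:**
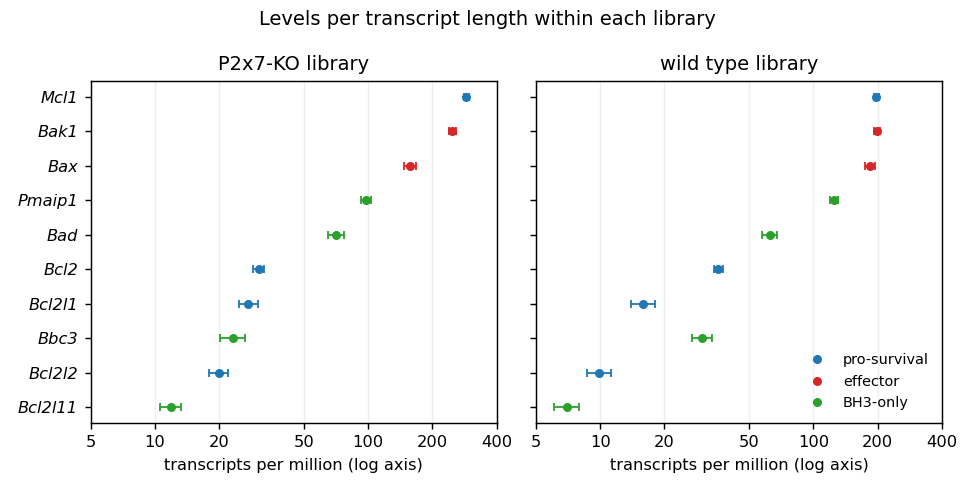
TPM of the 10 genes on a log axis, by longest protein-coding transcript, for the library labelled P2x7-KO (left) and the library labelled wild type (right), with exact 95% Poisson intervals and colours by role. Genes are ordered by the level in the library labelled P2x7-KO, where Mcl1 stands above Bak1 and Bax, while these 3 lie together in the library labelled wild type. The levels are not adjusted for the trend on length and GC content. With that adjustment the ratio of ratios went from 1.71 to 0.885 for Mcl1 per Bax. For Mcl1 per Bak1 it went from 1.17 to 0.833.

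Of the rest of the BCL2 family, 10 of 15 genes had at least 20 counts, of which 3 were at least 2-fold higher, 1 was at least 2-fold lower and 6 were neither. Their median log2 ratio was -0.090. Bmf, a BH3-only gene whose product is tied to the cytoskeleton until released, stood out from the 10 genes above, with 514 counts (40.4 CPM) in the library labelled P2x7-KO and 102 (8.38 CPM) in the library labelled wild type, a ratio of 4.81 (3.89 to 6.01) and an adjusted log2 ratio of 2.13 (length and GC content). Bnip3 and Bnip3l encode mitophagy receptors that hypoxia induces. They had ratios of 2.29 (1.99 to 2.65) from 663 counts in P2x7-KO and 276 counts in wild type, and of 2.01 (1.87 to 2.16) from 2335 counts in P2x7-KO and 1110 counts in wild type. Their log2 ratios after adjustment were 1.12 and 0.69, the second under 2-fold.

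Bcl2a1a, one of several near-identical mouse copies of the pro-survival gene for A1, was lower at 9 counts in P2x7-KO and 31 counts in wild type, a ratio of 0.277 (0.116 to 0.597), and its copy Bcl2a1b had 25 counts in P2x7-KO and 46 counts in wild type, a ratio of 0.519 (0.306 to 0.863). Reads that match several copies make both values uncertain. Bid, whose product links death receptors to the mitochondrion after caspase cleavage, had 1116 counts in P2x7-KO and 1064 counts in wild type, a ratio of 1.0 (0.920 to 1.09). Bcl2l12 was at 0.710 (0.622 to 0.809), Bcl2l13 at 1.05 (0.864 to 1.29), Bcl2l14 at 0.880 (0.579 to 1.33) and Bik, another BH3-only gene, at 0.418 (0.145 to 1.07) from 7 counts in P2x7-KO and 16 counts in wild type. Bok, an effector relative, had 0 counts in the library labelled P2x7-KO and 10 in the library labelled wild type, under the minimum of 20. Hrk had 0 in both.

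Downstream of the mitochondrion, 20 genes of the apoptosome, the caspases and their inhibitors were assessed. Of these, 5 were at least 2-fold higher and 1 lower, where 10.8% and 8.95% of all genes assessed were. The median log2 ratio of the list was 0.30. The highest by the nearer interval bound were Xiap, a direct caspase inhibitor, with 1879 counts in P2x7-KO and 563 counts in wild type and a ratio of 3.19 (2.90 to 3.51), Birc6 at 2.23 (2.10 to 2.37) and Naip6 at 2.27 (2.07 to 2.49). Naip6 belongs to a group of close copies and is uncertain. Apaf1, the scaffold of the apoptosome, at 2.21 (2.04 to 2.40), and Birc3 at 2.21 (1.99 to 2.46) complete the 5 and are named after their values were seen. Endog, a mitochondrial nuclease, had 123 counts in P2x7-KO and 291 counts in wild type, a ratio of 0.404 (0.324 to 0.50). With length and GC content adjusted for, Birc3 stood at a log2 ratio of 0.99 (0.84 to 1.15), just under 2-fold, and Xiap at 0.86. None of these 6 was then past 2-fold. Cycs, the gene for cytochrome c, which the pores release, was past it at -1.29, from 154 counts in P2x7-KO and 289 counts in wild type and an unadjusted ratio of 0.509 (0.416 to 0.621). It is named after its values were seen, and close pseudogene copies make its counts uncertain.

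Death receptors and their adaptors held 12 assessed genes, of which 1 was higher, Tnfrsf1b, a receptor of tumour necrosis factor without a death domain, with 1819 counts in P2x7-KO and 714 counts in wild type and a ratio of 2.43 (2.23 to 2.66). Their median log2 ratio was 0.18. After adjustment 1 gene was also lower, Tnfrsf10b, named after its values were seen, from 10 counts in P2x7-KO and 20 counts in wild type. The 8 outer membrane partners had 0 genes past 2-fold and a median of -0.18. Among 18 genes for turnover and phosphorylation of BCL2 proteins, 1 was higher, Usp9x, a deubiquitinase that stabilises MCL1. It had 1531 counts in P2x7-KO and 669 counts in wild type, a ratio of 2.19 (2.0 to 2.40), and a log2 ratio of 0.22 after adjustment, when Pim1, a kinase gene named after its values were seen, was past 2-fold at 1.11 (0.95 to 1.27). Their median was 0.12.

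Transcriptional regulators known to act on BCL2 family genes counted 18 assessed genes with 0 higher and 3 lower, and a median log2 ratio of 0.11. Of all genes assessed, 10.8% were higher and 8.95% lower. Egr1, an immediate early gene, had 305 counts in the library labelled P2x7-KO and 1804 in the library labelled wild type, a ratio of 0.162 (0.143 to 0.182). Ddit3 and Atf4 encode factors of the integrated stress response, which is known to raise Pmaip1 and Bbc3. Ddit3 had 125 counts in P2x7-KO and 334 counts in wild type, a ratio of 0.358 (0.289 to 0.440), and Atf4 had 3383 counts in P2x7-KO and 6567 counts in wild type, a ratio of 0.492 (0.472 to 0.513). After adjustment their log2 ratios were -0.89 and -0.69, under 2-fold, while Egr1 was at -2.60. Trp53, chosen after its values were seen as the gene for p53, had 1795 counts in P2x7-KO and 2762 counts in wild type, a ratio of 0.621 (0.585 to 0.659). It was under 2-fold, and its log2 ratio after adjustment was -0.39. By direction alone, 10 of the 18 genes were above a log2 ratio of 0 as scaled and 8 were below. Stat5b, at a ratio of 1.68 (1.56 to 1.80), and Foxo3, at 1.61 (1.47 to 1.77), were among those above. The other FOXO genes of the list, Foxo1 at a ratio of 1.204 and Foxo4 at 1.04, had intervals that included 1. After adjustment the log2 ratios were 0.503 for Stat5b, 0.34 for Foxo3, -0.35 for Foxo1 and 0.19 for Foxo4. Stat5b and the FOXO genes are named after their values were seen.

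Markers of blood cell types also differed between the libraries. The sorted cells are of a myeloid leukaemia, and bulk counts do not show which cells carried the marker RNA. Monocyte and macrophage markers summed to 5294 CPM in the library labelled P2x7-KO and 2465 CPM in the library labelled wild type, with 7 of 10 at least 2-fold higher. Mast cell and basophil markers summed to 112 CPM in P2x7-KO and 521 CPM in wild type, with 2 of 5 assessed genes lower and Fcer1a at 0 in both. Neutrophil markers summed to 3430 CPM in P2x7-KO and 3730 CPM in wild type, with 1 higher and 2 lower of 10 as scaled, and 4 higher and 1 lower after adjustment for length and GC. Erythroid markers stood at 10.6 CPM in P2x7-KO and 1.32 CPM in wild type, with both of their assessed genes higher. B lymphoid markers stood at 99.3 CPM in P2x7-KO and 132 CPM in wild type, with 2 higher and 1 lower of 4 assessed. T and NK markers stood at 10.1 CPM in P2x7-KO and 25.5 CPM in wild type, with the 1 assessed gene lower and Trac and Ncr1 at 0 in both. Of the genes used in the sort, Itgam had 543 CPM in P2x7-KO and 187 CPM in wild type, a ratio of 2.90 (2.77 to 3.05), and Kit 67.6 CPM in P2x7-KO and 46.0 CPM in wild type, a ratio of 1.47 (1.32 to 1.64) that adjustment for both took to a log2 ratio of 0.15 (-0.0097 to 0.30). The part of these shifts in the values of the 10 genes was not tested.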

How the data were processed

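Per the submitters' processing notes, HISAT2 2.0.4 and build mm10 were used. The deposited table holds the authors' raw counts per gene, whole numbers that are not normalized, from which 0 value columns were left out. Not given in the sources used here are the counting program, annotation, strand setting and treatment of multiply matching reads. Counts were scaled with TMM (edgeR 4.0.16, R 4.3.3). Ratios are the library labelled P2x7-KO over the library labelled wild type, with exact 95% Clopper-Pearson intervals. CPM intervals are exact Poisson intervals, and ratios of ratios have exact conditional intervals. Log2 ratios had 0.5 added to each count. Trends on transcript length and GC content were removed by cubic splines (patsy 1.0.2, 5 degrees of freedom) over the 92.6% of assessed genes (those with at least 20 counts) with a GENCODE M21 length. A gene was called at 2-fold with an interval excluding 1 and at least 20 counts over both libraries. All 10 genes are named, and the other BCL2 family genes with at least 20 counts, and from other lists the called genes, at most 3 in each direction by the nearer interval bound. The genes and the 16 lists (160 entries, of which 2 names were not found) were chosen with earlier results of these data known.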

Additional observations from a re-analysis of the deposited data

How the results depend on the processing

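With the other scalings (total count, DESeq2 1.42.0 median of ratios, upper quartile, and TMM without ribosomal protein and mitochondrial genes), 0 of the 10 genes were 2-fold apart, as with TMM and with no count minimum or one of 100. Total counts shifted every log2 ratio by 0.068, which turned Bak1 to the other side of 0. The count became 1 after adjustment for transcript length and for length with GC content (Bcl2 in both), 2 with the median transcript length and GC content, an alternative chosen after seeing the data (Bcl2 at -1.14 and Pmaip1 at -1.09), and 5 at 1.5-fold. Over all genes 2643 were called, and 1749, 1644 and 1755 after these 3 adjustments, 1685 with a minimum of 100 counts, which tests fewer genes, and 5346 at 1.5-fold. The adjustments also cover fewer genes, the 12374 of 13363 with a length. Of the 2643 called as scaled, 1281 of 1447 higher and 1068 of 1196 lower genes had a length. Adjustment for length turned Bad to 0.10 and Bak1 to 0.047. Length with GC content turned Bax to 0.19, Bcl2l11 to -0.011, Bad to 0.31 and Bak1 to 0.28, and the median length with GC content turned Bax to 0.16, Bad to 0.33, Bbc3 to 0.20 and Bak1 to 0.30; the cause was not tested. Bcl2 (-1.21 to -0.52) and Pmaip1 (-1.09 to -0.65) stayed lower, and Bcl2l1 (0.39 to 0.72) and Bcl2l2 (0.48 to 0.75) higher, under all of these scalings and adjustments. Mcl1 stayed above 0 (0.018 to 0.25), but its interval included 0 after adjustment for length and GC content. No library could be left out and no paired analysis was possible because each group holds 1 library.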
